A study of Drosophila melanogaster with 4 samples.

Results

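The Polycomb group genes of Drosophila melanogaster described here are 10 genes for some, but not all, subunits of 3 chromatin complexes: ph-p, ph-d, Pc, Psc, Sce and Scm for PRC1 or its partner protein, E(z), esc and Su(z)12 for PRC2, and pho for PhoRC. They were chosen by name, and their start sites were collected as all clusters of CAGE tags whose strongest position lay on the gene's strand inside its annotated body or within 100 bp of one of its annotated transcription start sites. All 10 were measured, of 13063 genes with a level of at least 1 TPM in either group. In CAGE, cap analysis of gene expression, only the capped 5′ ends of RNA are sequenced. A read, called a tag, gives the base and strand of such an end, taken here as a start site. Whether transcription began at each of these ends was not tested. Levels are tags per 1000000 tags in all clusters of a group, written TPM. A CAGE level counts 5′ ends and does not grow with the length of a gene.

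The KmgKD group was adult testes of genotype bamGAL4/ KmgRNAi, in which the bam promoter drives RNA interference against kmg in late spermatogonia, and the control group was adult testes with the bamGAL4 driver alone; whether control males also carried an unrelated RNAi transgene is not said in the labels. Crosses were kept at 25 °C for 3 days and their offspring were then raised at 29 °C, and testes of males aged 0 to 2 days were dissected, in both groups. Each group had 2 libraries, each from RNA of 150 pairs of testes, so many animals were pooled in each library and spermatogonia, spermatocytes, spermatids and somatic cells were read together. Only 1 pooled value per group was analysed here, so there is no replicate spread, no test was possible, and every difference compares these pooled libraries. KmgKD libraries were read in pairs of 150 bp, of which only read 1 was used, and control libraries in single reads of 76 bp, and the effects of read length and genotype cannot be told apart. In whole testes, fewer cells of a type and less RNA per cell cannot be told apart either.

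Polycomb group proteins keep developmental genes such as the Hox genes silent in cells where those genes should stay off. PRC2 methylates a lysine of the histone H3 tail through its enzyme E(z), PRC1 binds that mark through the chromodomain of Pc and ubiquitinates histone H2A through Sce, and PhoRC brings both complexes to DNA elements through the zinc fingers of pho. In the fly testis, Polycomb proteins have been described at genes that are switched on in spermatocytes, and PRC2 subunits are known to be more abundant in the precursor cells than in spermatocytes. Kmg (Kumgang) is a spermatocyte zinc finger protein that works with the remodeler Mi-2.

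The pooled libraries held 34975246 tags in 57330 clusters in KmgKD and 56519714 tags in 32731 clusters in control. Over the whole gene, the target kmg was at 12.7 TPM in KmgKD and 48.5 TPM in control, a ratio of 0.261 (0.236 to 0.289). Mi-2 was at 122 TPM in KmgKD and 131 TPM in control. Within 100 bp of annotated starts, kmg was at 0.0858 TPM in KmgKD and 1.72 TPM in control, and Mi-2 at 12.6 TPM in KmgKD and 33.5 TPM in control. Over 30103 start regions seen in both groups (overlapping clusters on the same strand, joined), the median KmgKD over control ratio of levels was 1.70-fold, or 0.76 on the log2 scale. A change is therefore also given rescaled, with KmgKD levels divided by this ratio. Changes were computed as log2((KmgKD + 1) / (control + 1)) in TPM, a scale that understates the change of low genes, and a gene or region passed the 4-fold rule at 2 or above, or at -2 or below. On this scale a gene or region that is low in control cannot pass downward, even with no KmgKD tags. Ratios without that added 1 are given with exact binomial intervals at 95%, which cover counting error only.

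Summed over the whole gene, ph-d, Psc and Scm passed the 4-fold rule upward in KmgKD, and 0 of the 10 genes passed it downward. The genes ph-d, ph-p, esc and Psc, at 1.01 to 2.64 TPM in control, were too low there to pass downward. Of all 13063 measured genes, 21.4% passed upward and 5.44% downward, so a count of 3 in 10 is not far from what genes in general showed. After rescaling only Psc passed, against 13.5% of all genes. All 10 genes had a log2 change above 0, but Pc and pho were below 0 after rescaling, at -0.50 and -0.56. The median change of the 10 was 1.17, and 0.52 after rescaling, beside 0.68 and -0.02 over all genes. Their summed level was 268 TPM in KmgKD and 117 TPM in control.

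Most of this added level came from places other than the annotated starts. Within 100 bp of annotated starts the 10 genes summed to 151 TPM in KmgKD and 114 TPM in control. Elsewhere in the same genes they summed to 118 TPM in KmgKD and 3.77 TPM in control. At annotated starts only ph-d and Psc passed the 4-fold rule, against 7.84% of the 11003 genes measured there, and after rescaling only Psc passed, against 4.54%. The level of ph-d there was 0.832 TPM in control, so it reached 1 TPM only in KmgKD. The median change at annotated starts was 0.22, beside -0.04 over all genes, and -0.50 after rescaling, beside -0.69. The plot of levels shows both parts for each gene.

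**Figure D1:**
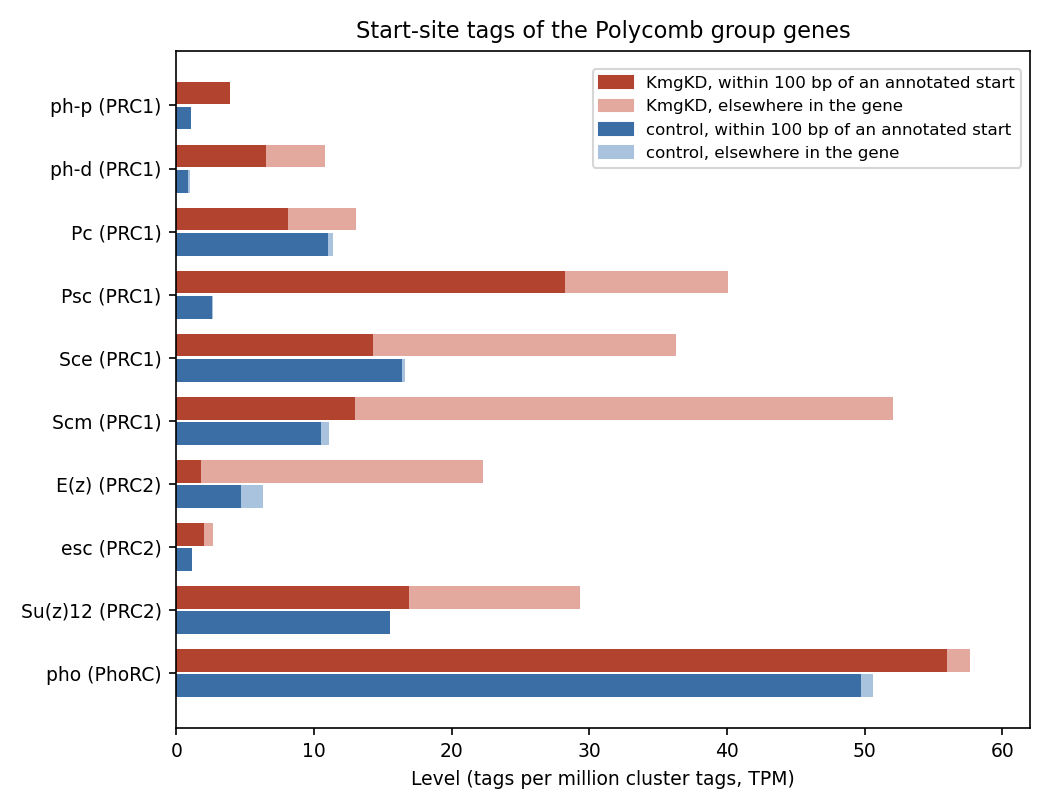
Level of each Polycomb group gene in TPM, with the KmgKD bar above the control bar; dark parts are tags within 100 bp of an annotated start and light parts are tags elsewhere in the gene. Each bar is 1 pooled value without a replicate error. The light parts are wide in KmgKD for Scm, Sce and E(z) (39.1, 22.0 and 20.5 TPM) and narrow in control (0.566, 0.230 and 1.59 TPM).

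In PRC1, Psc showed the largest rise of the 10 genes. Psc (Posterior sex combs, chromosome 2R from 12965997 to 12980994, minus strand, BDGP6 coordinates as for all genes here) encodes a RING finger protein that scaffolds the complex. It stood at 40.1 TPM in KmgKD and 2.64 TPM in control, a ratio of 15.2 (12.8 to 18.1). Psc is the only one of the 10 with a pair of annotated start sites that were both used. Its upstream start, at position 12980989, was at 13.3 TPM in KmgKD and 0.672 TPM in control, a ratio of 19.8 (14.2 to 28.3). Its second start, at 12980652, was at 15.0 TPM in KmgKD and 1.93 TPM in control, a ratio of 7.77 (6.31 to 9.64). Both starts passed the 4-fold rule, and after rescaling the upstream one still passed at 2.40 while the second stood at 1.75. Both had their strongest position at exactly the same base in KmgKD and control, and the interquantile width, the span that holds the middle tags of a cluster, was 1 bp in each group.

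Psc also had a pair of start regions inside introns. The region from 12975850 to 12975951 held 285 tags, 8.15 TPM, in KmgKD and 2 tags in control, a ratio of 230 (63.2 to 1911). The region from 12973454 to 12973549 was at 3.63 TPM in KmgKD and had no control cluster. Set against a floor of 3 control tags, or 0.0531 TPM, that is at least 68.4-fold higher. Together these intronic tags made up 29.4% of Psc tags in KmgKD (95% Wilson interval 27.1 to 31.8) and 1.34% in control (0.369 to 4.76).

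The ph genes are tandem copies of the polyhomeotic gene on chromosome X, ph-d from 2115727 to 2123286 and ph-p from 2126210 to 2138371, both on the minus strand. They encode closely related proteins with a SAM domain by which PRC1 joins into larger assemblies. ph-d was at 10.8 TPM in KmgKD and 1.01 TPM in control, a ratio of 10.7 (8.12 to 14.5). ph-p was at 3.92 TPM in KmgKD and 1.04 TPM in control, a ratio of 3.75 (2.75 to 5.18), and did not pass the rule at 1.27. The counts behind these levels were small, with 379 and 137 tags in KmgKD and 57 and 59 tags in control.

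Each ph gene used 1 sharp start 31 bp upstream of an annotated site, with an interquantile width of 1 bp and the same strongest base in both groups. At this start ph-d was at 6.49 TPM in KmgKD and 0.832 TPM in control, and ph-p had no other start at all. The copies are alike in sequence, and how tags that match both were divided between ph-d and ph-p was not checked, so their separate levels are uncertain. ph-d had a further region from 2118336 to 2118413, in its coding exon 4 of 5, at 4.35 TPM in KmgKD and 0.177 TPM in control, a ratio of 24.6 (13.0 to 52.3). That start lies after 68.4% of the coding sequence. Neither the gene sum nor a single start of ph-d passed the rule after rescaling, with 1.88 for the sum.

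Scm and Sce had strong starts inside coding exons in KmgKD. Scm (Sex comb on midleg, chromosome 3R from 9633359 to 9637611) encodes a SAM domain protein that links PRC1 with other Polycomb proteins. It was at 52.1 TPM in KmgKD and 11.1 TPM in control, a ratio of 4.70 (4.29 to 5.15), and 1.39 on the rescaled log2 scale, which no longer passed. Its annotated start was at 13.0 TPM in KmgKD and 10.5 TPM in control, a change of 0.28 that turned to -0.42 after rescaling. The strongest Scm start in KmgKD was a different one, a coding-exon region from 9635033 to 9635295 at 21.2 TPM, against 0.195 TPM in control, a ratio of 109 (60.6 to 219). Farther on, the region from 9634843 to 9634915 was at 10.8 TPM in KmgKD and had no control cluster, at least 203-fold higher over the floor. Both lie in exon 3 of 4, after 66.4% and 82.3% of the coding sequence.

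Scm had 3 weaker regions as well. One in the 5′ UTR, from 9637171 to 9637222, was at 4.26 TPM in KmgKD and 0.142 TPM in control, a ratio of 30.1 (14.9 to 71.0) that passed the rule at 2.20 but not after rescaling at 1.62. A second in the 5′ UTR was at 1.80 TPM in KmgKD and 0.230 TPM in control. A coding-exon region from 9635697 to 9635737 was at 1.09 TPM in KmgKD and had no control cluster, and neither of these passed the rule.

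Sce (Sex combs extra, also called dRing, chromosome 3R from 27680431 to 27682029) is the ubiquitin ligase of PRC1 and the shortest of the 10 genes, at 1599 bp. It was at 36.3 TPM in KmgKD and 16.6 TPM in control, a ratio of 2.18 (2.01 to 2.38) that did not pass the rule. Its annotated start was at 14.3 TPM in KmgKD and 16.4 TPM in control, a ratio of 0.873 (0.782 to 0.975), or 0.515 (0.461 to 0.575) after rescaling, with the same strongest base. In the first exon, which holds most of its coding sequence, the region from 27681458 to 27681533 was at 16.0 TPM in KmgKD and 0.230 TPM in control, a ratio of 69.6 (40.4 to 132). A region from 27680994 to 27681037 was at 5.98 TPM in KmgKD with no control cluster, at least 113-fold higher over the floor. These starts lie after 33.4% and 68.2% of the coding sequence, and both passed the rule before and after rescaling.

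Pc (Polycomb, chromosome 3L from 21306138 to 21318020), the reader of the PRC2 mark, stood near its control level over the whole gene before rescaling. It was at 13.1 TPM in KmgKD and 11.4 TPM in control, a ratio of 1.15 (1.02 to 1.30), or 0.680 (0.602 to 0.768) after rescaling. Its annotated start was at 8.15 TPM in KmgKD and 11.02 TPM in control, a ratio of 0.739 (0.640 to 0.852), or 0.436 (0.378 to 0.502) after rescaling. An intronic region from 21317794 to 21317848, 226 bp past the annotated start, was at 3.89 TPM in KmgKD and 0.336 TPM in control, a ratio of 11.6 (7.13 to 19.8) whose log2 change of 1.87 did not pass the rule. A region in its 3′ UTR was at 1.06 TPM in KmgKD and had no control cluster.

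Of the 3 PRC2 genes among the 10, 0 passed the rule as a whole. E(z) (Enhancer of zeste, chromosome 3L from 10634575 to 10638130), the methyltransferase, came closest, at 22.3 TPM in KmgKD and 6.30 TPM in control, a ratio of 3.54 (3.12 to 4.02) and a log2 change of 1.67. The sum hides opposite values. The annotated start of E(z) was at 1.80 TPM in KmgKD and 4.71 TPM in control, a ratio of 0.383 (0.286 to 0.505), the lowest ratio at annotated starts among the 10 genes. After rescaling this ratio was 0.226 (0.169 to 0.298). With a log2 change of -1.03, or -1.47 after rescaling, the annotated start did not pass the rule.

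The E(z) tags elsewhere were at 20.5 TPM in KmgKD and 1.59 TPM in control, a ratio of 12.9 (10.3 to 16.2). The strongest of these regions, from 10637579 to 10637603 in the first intron, was at 9.15 TPM in KmgKD and 0.0708 TPM in control, a ratio of 129 (50.0 to 477). It lies 276 bp past the annotated start and passed the rule before and after rescaling. The next, in the first coding exon from 10637652 to 10637714, was at 6.72 TPM in KmgKD and 1.08 TPM in control, and 1.89 on the log2 scale did not pass. In KmgKD 3 further coding-exon regions were called at 0.944 to 2.09 TPM without a control cluster, and 1 intronic region at 0.442 TPM was called in control alone. The E(z) regions thus crowd near the 5′ end, after 2.05% to 31.6% of the coding sequence for those in coding exons, while those of Sce, Scm and ph-d lie farther in.

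Su(z)12 (chromosome 3L from 19918242 to 19923462) encodes the zinc finger subunit that PRC2 needs for its assembly. It was at 29.4 TPM in KmgKD and 15.5 TPM in control, a ratio of 1.89 (1.73 to 2.07). Its annotated start was at 16.9 TPM in KmgKD and 15.5 TPM in control, a ratio of 1.09 (0.979 to 1.21) whose interval includes 1 and whose log2 change of 0.12 turned to -0.59 after rescaling, and its strongest base was the same. All control tags of Su(z)12 came from this start. An intronic region near the 3′ end, from 19919455 to 19919570, was at 8.98 TPM in KmgKD, at least 169-fold above the floor, and passed the rule before and after rescaling. On either side of it, regions of 1.89 and 1.60 TPM in KmgKD had no control cluster and did not pass.

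The subunit gene esc (extra sexcombs, chromosome 2L from 11827204 to 11829405), which encodes a WD40 protein that binds the methylated histone tail, was the lowest of the 10 in KmgKD. It was at 2.69 TPM in KmgKD and 1.15 TPM in control, a ratio of 2.34 (1.69 to 3.26), from 94 and 65 tags. Its annotated start was at 2.03 TPM in KmgKD and 1.15 TPM in control. An intronic region 246 bp past it was at 0.658 TPM in KmgKD and had no control cluster. The gene lies inside Pde1c on the same strand, so its tags lie in both genes.

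PhoRC was represented by pho (pleiohomeotic, chromosome 4 from 1172469 to 1181628), the only sequence-specific DNA-binding protein among the 10. It had the highest level in both groups, 57.6 TPM in KmgKD and 50.6 TPM in control, a ratio of 1.14 (1.08 to 1.21), or 0.672 (0.634 to 0.712) after rescaling. Nearly all of it came from the annotated start, at 56.0 TPM in KmgKD and 49.8 TPM in control, a log2 change of 0.17 that turned to -0.58 after rescaling. Its only other region, in the 5′ UTR 210 bp downstream, was at 1.69 TPM in KmgKD and 0.832 TPM in control. With this depth of 2016 tags in KmgKD and 2859 tags in control, pho had the narrowest interval of the 10.

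**Figure D2:**
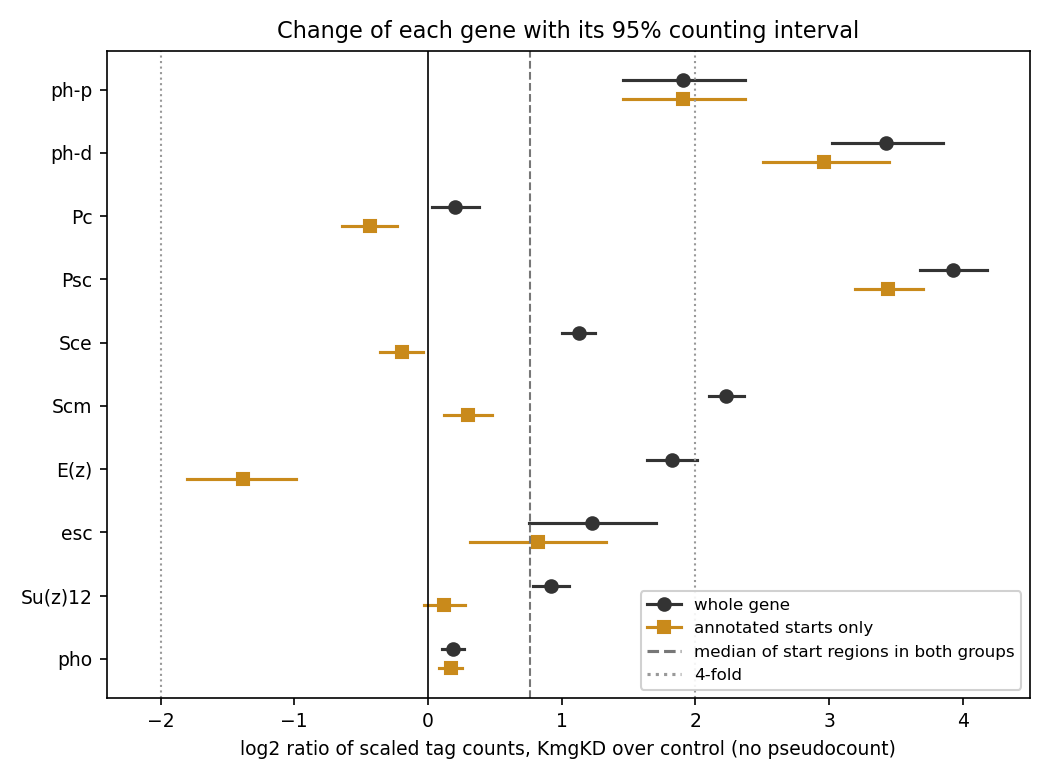
Ratio of the scaled tag counts, KmgKD over control, on a log2 axis without a pseudocount, for the whole gene (circles) and for annotated starts alone (squares), with exact 95% binomial intervals for counting error. The squares of Psc, ph-d and ph-p lie well right of the dashed line, the median of start regions in both groups, that of esc lies just right of it, and that of E(z) is the leftmost, at a ratio of 0.383.

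In control the order of levels was pho, then Sce and Su(z)12, then Pc and Scm, then E(z), Psc, esc, ph-p and ph-d. The levels of Sce and Su(z)12 (16.6 and 15.5 TPM) and those of Pc and Scm (11.4 and 11.1 TPM) were close, and esc, ph-p and ph-d lay between 1.01 and 1.15 TPM on 57 to 65 tags each. In KmgKD the order was pho, Scm, Psc, Sce, Su(z)12, E(z), Pc, ph-d, ph-p and esc. Psc stood at percentile 62.2 of all measured genes in KmgKD and 26.6 in control, and pho at 71.5 in KmgKD and 74.7 in control.

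Region by region, 31 start regions of the 10 genes reached 1 TPM in either group. Of these, 13 passed the 4-fold rule upward and 0 downward, against 25.3% upward and 3.93% downward over the 34926 such regions in all genes. After rescaling 8 passed, against 15.5%. Among the 20 regions away from annotated starts 10 passed, against 35.3%, and 7 after rescaling, against 21.9%. Apart from 1 E(z) region at 1.08 TPM, all of these were below 1 TPM in control, so they reached 1 TPM only in KmgKD. At such control levels none of the 20 could pass downward. Among the 11 at annotated starts 3 passed, both of Psc and that of ph-d, against 7.56%. Of these 3, the upstream start of Psc and that of ph-d were also below 1 TPM in control. The annotated starts of Psc, ph-d, ph-p and esc, at 0.672 to 1.93 TPM in control, could not pass downward either.

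By place, 5 of 9 regions in coding exons passed upward, against 39.3% of all coding-exon regions, and 4 of 6 in introns, against 33.9%. In 5′ UTRs 1 of 3 passed, against 16.9%. Of the 20 regions away from annotated starts, 10 had no control cluster, against 50.4% of all such regions in genes, and 0 had no KmgKD cluster, against 1.81%. Of the 10 genes, 6 had at least 1 region away from annotated starts that passed upward, against 40.9% of all measured genes, and 5 after rescaling, against 29.4%. These 6 were ph-d, Psc, Sce, Scm, E(z) and Su(z)12. The map of start regions shows where they lie.

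**Figure D3:**
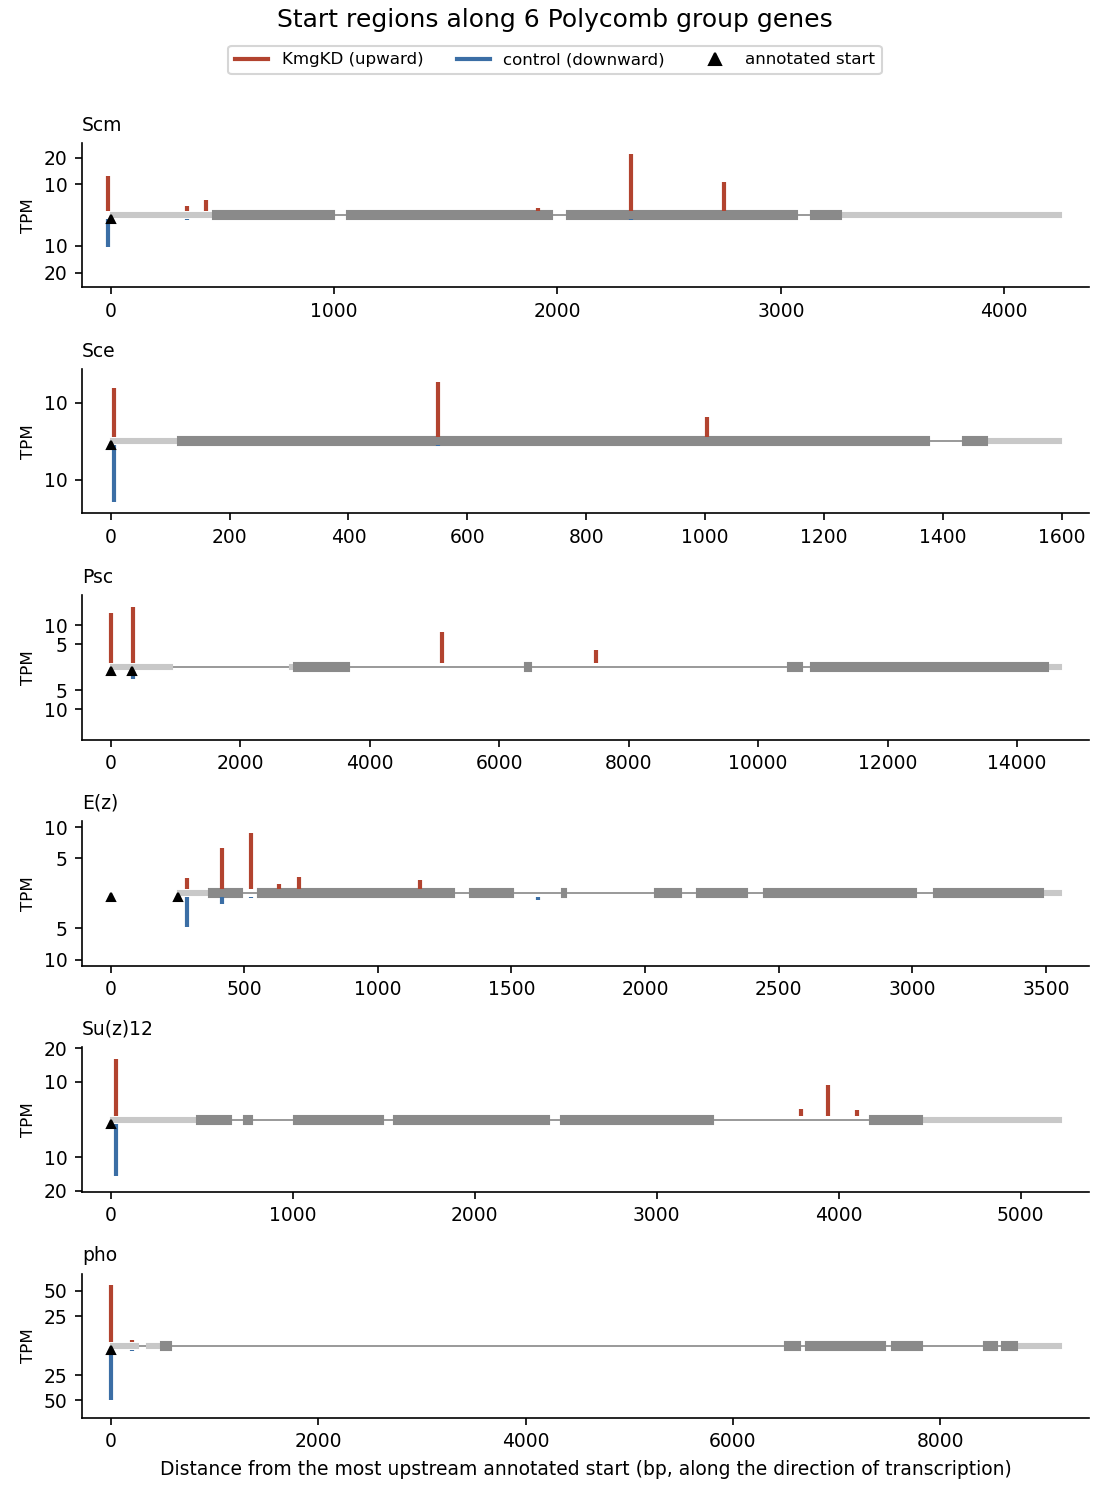
Start regions along Scm, Sce, Psc, E(z), Su(z)12 and pho, with the distance from the most upstream annotated start in bp on the x axis and the level in TPM on the y axis, KmgKD upward and control downward from the gene model; light grey boxes are exons, dark grey boxes coding parts, and triangles annotated starts. Each line is 1 pooled value at the strongest base of a region. Control lines stand almost only at annotated starts, whereas KmgKD lines also stand in the coding exons of Scm and Sce, the introns of Psc and Su(z)12 and the first exons and first intron of E(z).

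The share of a gene's tags that lay away from annotated starts was higher in KmgKD in 9 of the 10 genes and was 0 in both groups in ph-p. Its median over the 10 was 38.9% in KmgKD and 1.51% in control. Over all genes with a cluster at an annotated start and at least 1 TPM, the median share was 16.7% in KmgKD (10764 genes) and 0.458% in control (10149 genes). The highest shares were those of E(z), 91.9% in KmgKD (89.8 to 93.6) and 25.3% in control (21.05 to 30.04), of Scm, 75.1% in KmgKD (73.1 to 77.1) and 5.10% in control (3.64 to 7.12), and of Sce, 60.6% in KmgKD (57.8 to 63.2) and 1.38% in control (0.810 to 2.35). The share of pho was 2.93% in KmgKD (2.28 to 3.76) and 1.64% in control (1.24 to 2.18). All these intervals cover counting error only. The difference in share, KmgKD minus control, had a median of 31.4 percentage points over the 10 genes and 7.12 over 9726 genes with at least 1 TPM in each group. Of the 10 genes, 4 lay above the upper quartile of all genes, 36.2 points.

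**Figure D4:**
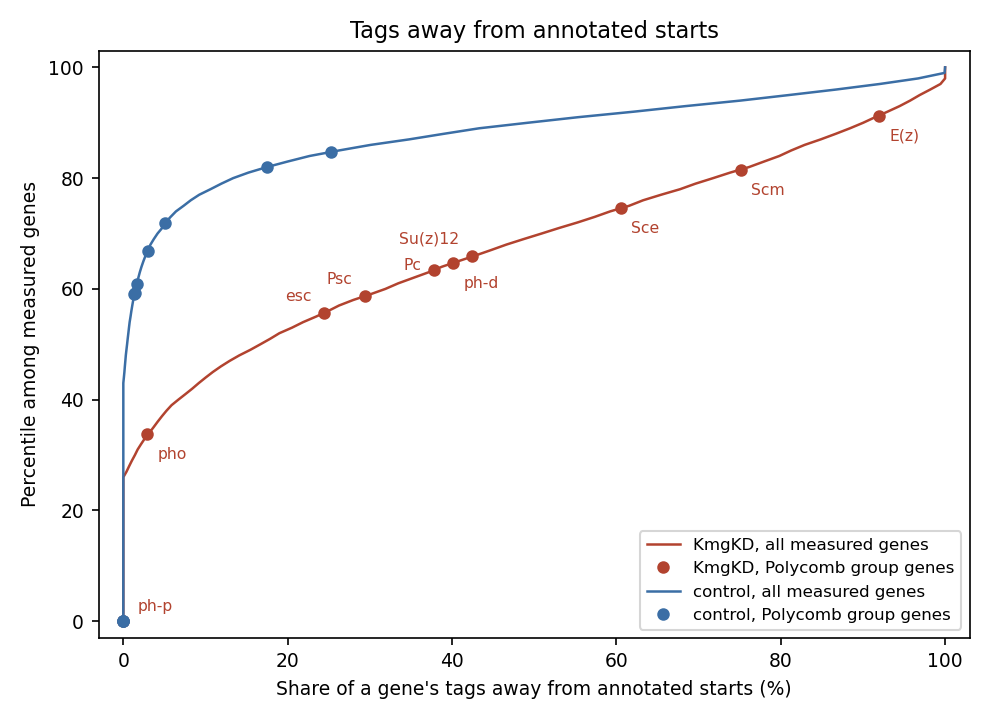
Share of a gene's tags away from annotated starts, in percent, against its percentile among all measured genes of the same group; lines are all measured genes and points the 10 Polycomb group genes, named for KmgKD. Genes with a share of 0 (ph-p in both groups, esc and Su(z)12 in control) are drawn at percentile 0. E(z), Scm and Sce lie highest on the KmgKD line, at percentiles 91.3, 81.5 and 74.6, and pho at 33.7.

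Start shape also differed among the 10 genes. At the 9 annotated-start regions with at least 1 TPM in both groups, the strongest base moved by more than 10 bp in 3, against 25.5% of 9925 such regions over all genes. It moved by 38 bp in Pc, 38 bp in Scm and 31 bp in E(z). In the others it was the same base or, in pho, 5 bp away. Some genes had broad starts and others sharp ones in both groups. The interquantile width at the annotated start was 221 bp in KmgKD and 160 bp in control for Su(z)12, and 133 bp in KmgKD and 74 bp in control for Sce. The starts of Psc and both ph genes were 1 bp wide in each group. Over all 9925 regions the median width was 49 bp in KmgKD and 42 bp in control. Psc, ph-d and ph-p, whose annotated starts were 1 bp wide, also had the highest ratios there of the 10 genes (10.9, 7.80 and 3.75), a description made after the values were seen.

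Start sites on the opposite strand were found inside 7 of the 10 genes, in 12 regions. Of the 10 regions that reached 1 TPM, 4 passed the rule upward, against 39.9% of the 8813 regions antisense to genes. Each of the 10 was below 1 TPM in control, so it reached 1 TPM only in KmgKD. The strongest lay in Su(z)12 from 19922689 to 19922793 on the plus strand, at 19.5 TPM in KmgKD and 0.106 TPM in control, a ratio of 183 (83.8 to 502). That level in KmgKD was above the 16.9 TPM of the gene's own annotated start. In Psc an antisense region at 8.06 TPM in KmgKD and 0.124 TPM in control had its strongest base 60 bp from that of the sense intronic region of 8.15 TPM. In Scm the antisense region from 9635303 to 9635327, at 3.26 TPM in KmgKD and with no control cluster, had its strongest base 19 bp from that of the strongest sense region. In Pc an antisense region was at 4.60 TPM in KmgKD and 0.0885 TPM in control. After rescaling, the regions of Psc and Su(z)12 passed at 2.36 and 3.50, and those of Pc and Scm stood at 1.77 and 1.55.

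In a list of 23 further Polycomb genes, all 23 were measured and only Kdm2 passed upward, against 21.4% of all genes, with 0 downward. Kdm2, which encodes a histone demethylase of a variant PRC1, was at 42.2 TPM in KmgKD and 5.82 TPM in control, and at 12.5 and 5.70 TPM at annotated starts, and its change of 2.66 became 1.92 after rescaling. The list median was 0.78, close to the 0.68 of all genes, and at annotated starts, where it was 0.28, 0 of 23 passed in either direction, against 7.84% upward over all genes. Among these, pho's paralog phol was at 29.8 TPM in KmgKD and 7.59 TPM in control, and the Psc paralog Su(z)2 at 6.78 TPM in KmgKD and 3.27 TPM in control. The esc paralog escl was at 1.03 TPM in KmgKD and 1.13 TPM in control. None of these 3 passed, and they were named as paralogs after their values were seen.

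The Trithorax group, which keeps active the genes that Polycomb proteins silence, had 18 listed genes, all measured. Of these, 5 passed upward and 0 downward, against 21.4% and 5.44% of all genes, and 3 passed after rescaling, against 13.5%. Their median was 1.19, or 0.44 after rescaling. The methyltransferase gene ash1 was at 124 TPM in KmgKD and 14.0 TPM in control. The gene mor, for a subunit of the Brahma remodeler, was at 84.1 TPM in KmgKD and 5.18 TPM in control, and ash2, for a subunit of methyltransferase complexes, at 54.6 TPM in KmgKD and 4.41 TPM in control. The genes wds and trr, also of such complexes, were at 24.4 and 15.6 TPM in KmgKD and 3.57 and 2.21 TPM in control, and these did not pass after rescaling, at 1.75 and 1.67. At annotated starts only ash2 of the 18 passed upward, against 7.84% of all genes, at 20.8 TPM in KmgKD and 3.41 TPM in control, and only trx, the methyltransferase that gives the group its name, passed downward, at 0.543 TPM in KmgKD and 5.66 TPM in control. Over the whole gene trx was at 20.9 TPM in KmgKD and 5.79 TPM in control, and its fall at annotated starts was noticed after the values were seen.

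A list of 21 genes known as Polycomb targets, which includes Psc and ph-p, had 19 measured members. Of these, 8 passed upward and 0 downward, against 21.4% and 5.44% of all genes, and 6 upward after rescaling, against 13.5%. Before rescaling 3 of the 19 were below 0, which were abd-A, salm and eya, named after the values were seen. The Hox gene abd-A was at 14.6 TPM in KmgKD and 27.3 TPM in control. At annotated starts 5 of the 15 measured there were below 0. The 8 include vg and eve, which passed the filter only through KmgKD, with eve at 6.32 TPM in KmgKD and 0.248 TPM in control. The segment polarity gene en was at 57.4 TPM in KmgKD and 3.15 TPM in control, and the Hox gene pb at 74.5 TPM in KmgKD and 5.70 TPM in control. The wing gene vg was at 13.0 TPM in KmgKD with no control cluster, 245-fold above the floor of 3 control tags. Control tags outside called clusters were not checked for vg, so its true ratio could be lower. At annotated starts 3 of 15 passed upward, against 7.84% of all genes, which were Psc and the Hox genes pb and lab. There pb was at 4.12 TPM in KmgKD with no control cluster, so it passed the filter only through KmgKD. The level of lab there was 94.2 TPM in KmgKD and 6.58 TPM in control, and it was named after the values were seen. The remaining genes past the rule over the whole gene were the Hox gene Ubx, at 35.4 TPM in KmgKD and 2.95 TPM in control, and eve and Dll. At annotated starts Ubx was at 1.00 TPM in KmgKD and 2.14 TPM in control, and Dll at 0.143 TPM in KmgKD and 2.78 TPM in control. There en was at 8.69 TPM in KmgKD and 1.96 TPM in control, while eve and vg had no cluster in either group. The list's median was 1.78, or 2.37 with the 3 genes lacking a control cluster set at their ratio over the floor. Those 3, wg, vg and ey, passed the filter only through KmgKD, and their uncalled control tags were not checked. The Hox genes Dfd and Scr had no cluster in either group.

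Marker genes of the cell types of the testis and of nearby tissue also differed between the groups, and several lists gave another picture at annotated starts than over whole genes. All 15 listed spermatocyte and spermatid markers were measured, and they summed to 6600 TPM in KmgKD and 9093 TPM in control. Of these, mia and twe passed upward and the spermatid genes dj and ProtB downward, and twe no longer passed after rescaling. The lower sum came from dj, at 569 TPM in KmgKD and 2978 TPM in control, and ProtB, at 562 and 2286 TPM. The median log2 change of the 15 was 0.35, or -0.40 after rescaling, and before rescaling 4 of the 15 were below 0. At annotated starts mia passed upward and dj, ProtB and CycB downward.

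The 9 early germline markers summed to 187 TPM in KmgKD and 122 TPM in control, but at annotated starts to 46.3 TPM in KmgKD and 86.3 TPM in control. Over whole genes bam and otu passed upward and 0 downward, and otu, at 0.0531 TPM in control, passed the filter only through KmgKD. At its annotated start bam passed downward, with no cluster in KmgKD and 3.79 TPM in control, and otu had no cluster at an annotated start in either group. The 6 somatic cyst markers summed to 173 TPM in KmgKD and 82.0 TPM in control, with so passing upward and 0 downward. Without so the other 5 summed to 52.7 TPM in KmgKD and 62.5 TPM in control, and the median log2 change of the 6 was -0.26, with 4 of them below 0. After rescaling bam and so no longer passed.

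The 11 muscle markers summed to 522 TPM in KmgKD and 1527 TPM in control, with 0 upward and Act87E downward, and 4 downward after rescaling, which added Act57B, wupA and TpnC73F. The 7 accessory gland markers summed to 59.6 TPM in KmgKD and 165 TPM in control, with 0 upward and Acp26Aa, Acp62F, SP and Acp76A downward, and Acp26Aa and Acp98AB at 0 in KmgKD. Acp36DE held 53.8 TPM of that sum in KmgKD, of which 0.658 TPM lay at its annotated start, and the other 6 summed to 5.80 TPM in KmgKD and 149 TPM in control. At annotated starts 5 of the 7 passed downward, which were Acp26Aa, Acp62F, SP, Acp76A and Acp36DE.

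The 8 neuron markers summed to 236 TPM in KmgKD and 173 TPM in control, with elav, Syt1, brp, Gad1, ChAT and VGlut upward and nSyb downward, and elav and VGlut at 0 in control. Of those upward, elav, Syt1, Gad1 and VGlut were below 1 TPM in control and passed the filter only through KmgKD. The gene para was at 78.7 TPM in KmgKD and 102 TPM in control, and the other 7 summed to 157 TPM in KmgKD and 71.0 TPM in control. After rescaling elav no longer passed. At annotated starts the 8 markers summed to 7.43 TPM in KmgKD and 65.8 TPM in control, where 3 of the 8 were measured, with Gad1 upward and nSyb downward. Of these 3, Gad1 and VGlut had no control cluster there and passed the filter only through KmgKD. At annotated starts elav, Syt1, brp, ChAT and para had no cluster in either group, so their tags came wholly from other positions. The part of such marker differences in the values of the Polycomb group genes was not tested.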

How the data were processed

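CAGE libraries of KmgKD and control testes were analysed, 2 per group. Builds BDGP6 and dm6 and the tools bedtools, STAR 2.7.11b and Trim Galore 0.6.6 are listed, with no roles, in the submitters' processing notes. No cluster caller is named there. The deposited tables hold 1 pooled tag count per cluster and group, in a column whose header reads tpm. Since these were whole numbers with unequal totals, they were taken as raw counts and scaled here to 1000000 tags per group. Interquantile widths were used as the authors deposited them, spanning the 0.1 to 0.9 quantile positions.

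Clusters were placed on Ensembl release 115 gene models (BDGP6, dm6 coordinates) by their strongest base (cluster starts, deposited counting from 0, are printed counting from 1), on the same strand, and counted for every gene that holds them. Overlapping clusters of the groups formed start regions, whose place is that of the strongest base in the group with the higher level. The 4-fold rule used a pseudocount of 1 TPM and a filter of 1 TPM in either group. Levels with no cluster were set against a floor of 3 tags. Consensus clusters over the start regions of the 10 genes held at most 3 tags beyond those called, and other genes were not checked. In both groups every single-base cluster had 50 tags or more, so weaker ones would not be seen. Calls were tested on simulated data. Python 3.11.15, pandas 2.3.3 and scipy 1.17.1 were used. Members and gene lists were chosen with earlier results of these data known. Of 121 list names, 1 matched no symbol. Named genes were all 10 members, their starts of at least 1 TPM at annotated sites, past the rule or among the 2 strongest of the gene, kmg and Mi-2, and list genes past the rule (the 4 largest where over 6, of which Psc is a member). Motif, initiator and gene-copy checks that had been planned were not run, since no genome sequence was used here.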

Additional observations from a re-analysis of the deposited data

How the results depend on the processing

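With a pseudocount of 3 TPM 1 of the 10 Polycomb group genes passed the 4-fold rule upward, and 4 start regions passed, 3 of them away from annotated starts; with 0.5 TPM 16 regions away from annotated starts passed. After rescaling 1 gene and 8 start regions passed. The other alternatives (no filter, annotated starts alone, strongest region alone, each cluster counted for 1 gene, consensus clusters as regions, a window of 500 bp) left the counts of calls within 1.5 times of 3 genes, 13 regions and 10 regions, and 0 genes and 0 regions passed downward under any of these settings. Under each setting ph-p, ph-d, esc and the regions away from annotated starts were too low in control to pass downward. Single calls changed for ph-d (1.79 with 3 TPM, 1.88 rescaled), Scm (1.97 with 3 TPM, 1.39 rescaled, 0.28 at annotated starts alone or with its strongest region alone) and E(z) (3.24 with its strongest region alone). Whether a start lies away from an annotated one rests on the window: at 500 bp 8 of the called regions did, in place of 10. No paired analysis was possible because each table gives 1 pooled value per group, and for the same reason leaving out a replicate was not run. The initiator alternative was not run either, since no genome sequence was used here. Depth limits ph-p, ph-d and esc most, with 57 to 65 control tags each.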
